A study of Rattus norvegicus with 144 samples.

Results

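Gene expression in the liver was compared between the late and the early response to doses of acetaminophen that injure the liver: the change at 24 h after dosing was set against the change at 6 h. The comparison used 35 of the 72 rats of the study and 70 of its 144 arrays. All were male F344/N rats, an inbred strain, aged 10 to 12 weeks, and all received gavage in 0.5% ethyl cellulose, as a split dose. At 6 h, 6 rats had vehicle only (0 mg/kg), 5 had 1500 mg/kg and 6 had 2000 mg/kg of acetaminophen. At 24 h each of these 3 doses had 6 rats. The 1500 and 2000 mg/kg rats of a time were pooled as toxic-dose rats, which gave 11 at 6 h and 12 at 24 h. One further 1500 mg/kg rat of 6 h, rat 7334, was left out by the rule that chose the rats. Left-lobe RNA from every rat went onto a dye-swapped pair of arrays, each against a pool made from 6 vehicle rats of the same time, and the labels do not say if those rats are among the ones described. Doses were taken from the deposited key by rat number.

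A value below is the log2 ratio of a rat to that pool, averaged over its 2 arrays. Log10 was assumed for the deposited values and their direction is likely, not certain, since the sources used here state neither. The direction rests on the dye swap and on known responders, Hmox1, Nqo1, Mt1 and Mt2A rising and Cyp3a2 falling at 24 h. Another base would scale every log2 value by a common factor. Ratios carry no level, so the labelled tissue could not be checked against hepatocyte markers. Triplets of values give the lowest, median and highest rat of a group, and where 2 triplets follow each other the vehicle group comes first unless stated. A response is the mean of the toxic-dose rats minus that of the vehicle rats of the same time, and the time difference is the 24 h response minus the 6 h response. Errors are SE from limma, which fitted 71 rats in 9 groups unless stated, and calls are at an adjusted p under 0.05. The groups were vehicle, 150 mg/kg and toxic doses at 3, 6 and 24 h, so rats outside the comparison also set the SE. With only the compared groups in the fit, 2420 rows had a called time difference, against 3134 in the main fit. The number of rats and their 2 arrays each limit the precision.

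Acetaminophen is oxidised by cytochromes P450 to a reactive quinone imine, which glutathione captures until it runs low. The adducts and the oxidative stress that follow engage sensors that are known in liver. NRF2 drives antioxidant genes through the antioxidant response element, heat shock factors drive chaperones, and the kinases of the integrated stress response drive amino acid genes through ATF4. Zonal necrosis, loss of metabolic functions and repair are known to follow.

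Of 18978 gene rows, each either a symbol or an unnamed probe, 3134 had a called time difference, which is 16.5% of them. For 1517 rows (7.99%) the response was more positive at 24 h, and for 1617 (8.52%) it was more negative. At 6 h 2863 rows were called against vehicle (15.1%), of which 1376 rose (7.25%) and 1487 fell (7.84%). At 24 h 5464 were called (28.8%), of which 2624 rose (13.8%) and 2840 fell (15.0%). Most called time differences came from genes that changed late. A fall called at 24 h and not at 6 h made up 30.4% of the 3134, and a rise called at 24 h and not at 6 h made up 27.3%. Rises called only at 6 h, 328, and falls called only at 6 h, 329, made up 10.5% each. Responses of opposite sign were called at both times for 282 rows: 150 fell at 6 h and rose at 24 h, and 132 rose at 6 h and fell at 24 h. The median time difference over all rows was -0.013 and the median absolute response was 0.136 at 6 h and 0.185 at 24 h.

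**Figure D1:**
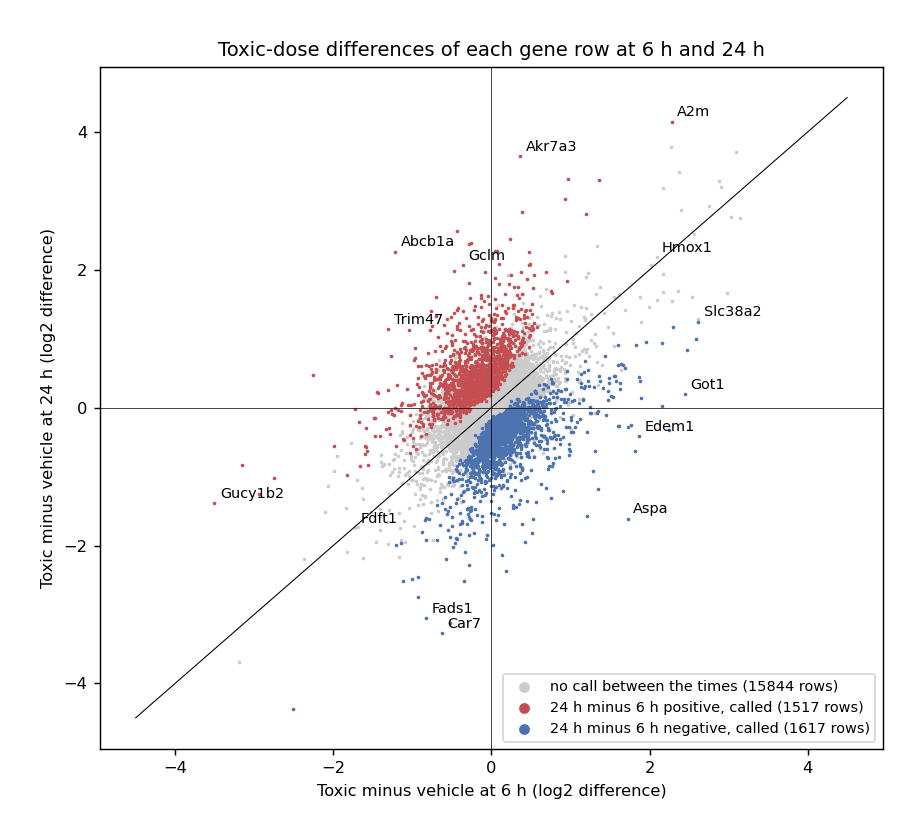
Each point is a gene row, with its toxic minus vehicle difference (log2) at 6 h on the horizontal axis and at 24 h on the vertical axis. The black diagonal marks equal responses. Red points lie above it and blue points below it where the time difference was called, and grey points were not called. Akr7a3 is near 0 at 6 h and at 3.65 at 24 h, while Aspa lies at 1.72 and -1.61.

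Genes of antioxidant defence responded mostly late. Of 30 measured NRF2 targets, 19 were called more positive at 24 h and 0 more negative, with a list median of 0.86. At 6 h 7 of them rose and 2 fell, and at 24 h 29 rose and 1 fell. Akr7a3, an aldehyde reductase that detoxifies reactive aldehydes, had the lowest, median and highest values -0.62, -0.068 and 0.33 in vehicle rats and -0.60, 0.29 and 0.77 in toxic-dose rats at 6 h. At 24 h they were -0.66, 0.024 and 0.41 with vehicle and 2.76, 3.59 and 4.59 after the toxic doses. The groups overlapped at 6 h, and at 24 h all 12 toxic-dose rats lay above every vehicle rat. Its time difference was 3.28 ± 0.27 (adjusted p = 3.13e-14), with a 12.5-fold rise at 24 h.

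Gclm, the modifier subunit of the enzyme that starts glutathione synthesis, ran through -0.20, 0.17 and 0.48 with vehicle and -0.49, -0.17 and 0.15 after toxic doses at 6 h. Its 24 h values were -0.036, 0.11 and 0.49 and 1.12, 2.31 and 3.11. The groups overlapped at 6 h, with 5 of 11 toxic-dose rats below every vehicle rat, and did not overlap at 24 h, and the time difference was 2.42 ± 0.25 (adjusted p = 4.70e-11). Gpx2, a glutathione peroxidase, moved from a 6 h response of 0.23 ± 0.16 to 2.45 ± 0.16 at 24 h. The quinone reductase Nqo1 was already up at 6 h, by 0.49 ± 0.14 (adjusted p = 0.00799), and rose further to 2.08 ± 0.14 at 24 h. Among glutathione transferases, which couple glutathione to electrophiles, the time difference was 1.76 ± 0.26 for Gstp1, 1.66 ± 0.25 for Gsta3, 0.99 ± 0.13 for Gsta2 and 0.71 ± 0.13 for Gsta1.

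Promoters were searched for the core of the antioxidant response element, TGACNNNGC, on both strands of the 250 bases before the start. Among the 50 genes with the most positive called time differences, 41 had a promoter in RefSeq (GRCr8) and 11 of these held the core (26.8%). It was present in 11.6% of the 43 promoters found for the 50 most negative genes, 12.2% of the 7947 promoters of measured genes and 10.2% of all 27457. Of the NRF2 targets, 8 of 25 matched promoters held it (32.0%). The windows of 5 of the 11, and of Txnrd1 from the NRF2 targets, are printed because these genes belong to glutathione, thioredoxin or epoxide detoxification. They were picked after their values were seen, and Ephx1, an epoxide hydrolase, and Txnrd1, a thioredoxin reductase, lie outside the naming rule. Their time differences were 1.62 ± 0.27 and 0.89 ± 0.30. Each is read 5′ to 3′ on the strand of its gene, with the core or its reverse complement in capitals. Gclm is at chr2:213031938-213031996 and Gsta3 at chr9:31154947-31154988 on the plus strand. On the minus strand are Gpx2 at chr6:101230034-101230071, Gstp1 at chr1:210769733-210769791, Ephx1 at chr13:95263141-95263199 and Txnrd1 at chr7:22755949-22756007.
Gclm: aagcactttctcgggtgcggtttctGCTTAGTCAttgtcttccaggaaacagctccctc
Gpx2: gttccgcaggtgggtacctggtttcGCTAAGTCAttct
Gstp1: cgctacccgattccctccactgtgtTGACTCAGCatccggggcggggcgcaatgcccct
Gsta3: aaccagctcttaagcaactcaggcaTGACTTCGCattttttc
Ephx1: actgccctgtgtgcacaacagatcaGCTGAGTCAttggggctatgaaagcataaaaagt
Txnrd1: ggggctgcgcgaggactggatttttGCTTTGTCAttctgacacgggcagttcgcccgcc

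A match is a description of letters and not of binding. Akr7a3 and Abcb1a were among the matched promoters and did not hold these letters in this window. The core of the metal response element, TGCNCNC, was searched in the same way and was in 39.0% of the 41 promoters of the most positive genes, 53.5% of the 43 of the most negative, 53.6% of those of measured genes and 43.9% of all.

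Other strong responders had no called time difference. Heme oxygenase Hmox1, which breaks down heme, had lowest, median and highest values of 0.32, 2.82 and 3.82 in toxic-dose rats at 6 h and -0.083, 2.90 and 4.49 at 24 h. Vehicle rats ran through 0.037, 0.42 and 0.87 and -0.089, 0.27 and 0.63. The groups overlapped at both times, with 2 of 11 toxic-dose rats at 6 h and 3 of 12 at 24 h not above the highest vehicle rat. Its time difference was 0.091 ± 0.58, with a 95% interval of -1.07 to 1.25. Metallothioneins, which bind zinc and other metals, differed by 0.47 ± 0.49 for Mt1 and 1.51 ± 0.57 for Mt2A (adjusted p = 0.0576). In the metal-responsive list, with a median of 0.65, 0 of 6 were called by limma, against 16.5% of all rows. The list is too short for that count to tell it from all rows, and 2 members had an unadjusted p under 0.05. Mt2A was above every vehicle rat in all 11 toxic-dose rats at 6 h and all 12 at 24 h.

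Immediate early genes, transcription factors switched on within minutes of a stimulus, also showed 0 called time differences by limma in 18 measured members. Of all rows 16.5% were called, and 5 of the 18 had an unadjusted p under 0.05. Among the 18, 11 rose at 6 h and 13 at 24 h, with list medians of 1.18 and 1.31 at the 2 times. Myc, a growth-promoting transcription factor, had responses of 1.33 ± 0.34 and 2.35 ± 0.33, and Zfp36, which destabilises cytokine messages, had 0.84 ± 0.12 and 0.43 ± 0.12.

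**Figure D2:**
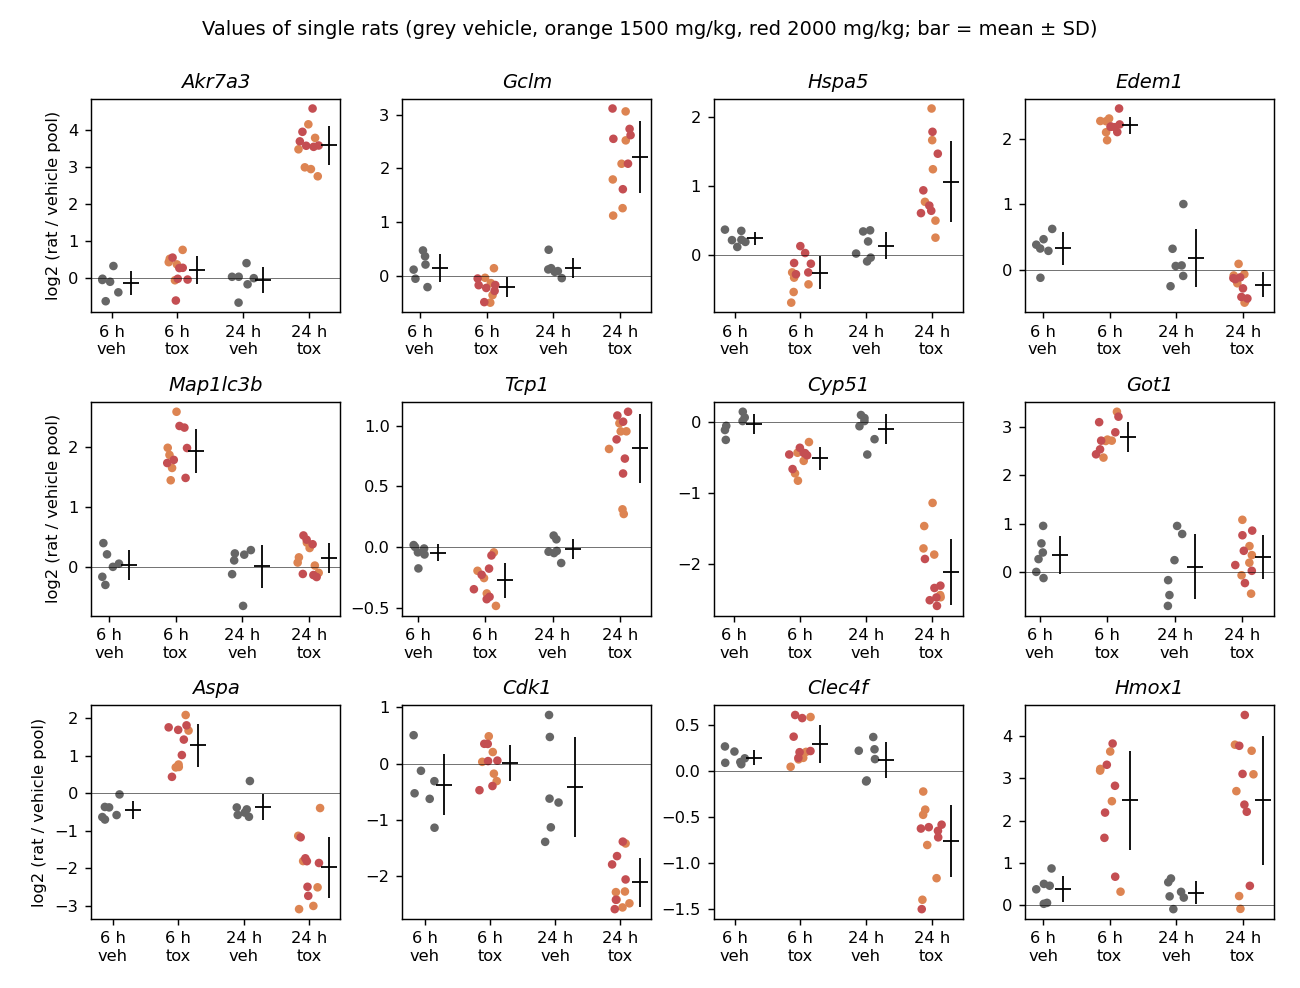
Every point is a rat, with its log2 ratio to the vehicle pool of its time for 12 genes. Grey points are vehicle rats, orange 1500 mg/kg and red 2000 mg/kg, with veh for vehicle and tox for the toxic doses, and bars give the mean and SD. Akr7a3 and Gclm rise away from vehicle at 24 h, while Edem1, Map1lc3b and Got1 stand apart at 6 h.

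Chaperones, which refold damaged proteins, formed the list with the largest share of late members. Of 20 measured heat shock proteins and chaperones, 17 were called more positive at 24 h and 0 more negative. The list median response was 0.18 at 6 h, when 1 rose and 2 fell, and 1.27 at 24 h, when 19 rose and 0 fell. Tcp1, a subunit of the ring chaperonin that folds actin and tubulin, had values of -0.18, -0.028 and 0.017 with vehicle and -0.48, -0.26 and -0.044 after toxic doses at 6 h. At 24 h they were -0.13, -0.035 and 0.095 and 0.27, 0.92 and 1.12. At 6 h 9 of 11 toxic-dose rats lay below every vehicle rat and at 24 h all 12 lay above, with a time difference of 1.06 ± 0.12 (adjusted p = 1.85e-10). Cct5 of the same ring differed by 0.95 ± 0.16, the HSP90 activator Ahsa1 by 1.01 ± 0.17 and the nucleotide exchange factor Hspa4 by 0.70 ± 0.12. Averaged over the list, single toxic-dose rats ranged from 0.26 to 2.35 at 24 h and from 0.10 to 0.997 at 6 h.

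The core of the heat shock element, GAANNTTC, was in 8 of 18 matched promoters of this list (44.4%), in 4.7% of the promoters of measured genes and in 7.1% of all. It was in 4.9% of the promoters of the 50 most positive genes and in 0 of 43 of the most negative. These windows show the element in the genes of the chaperones Hsph1, Dnajb1, Hspa8 and Hspe1, chosen by the match after their values were seen. Their time differences were 1.57 ± 0.32, 1.43 ± 0.38, 1.31 ± 0.25 and 0.94 ± 0.29. The gene of the mitochondrial chaperonin Hspd1 lies head to head with that of Hspe1 and shares the element. The core is in capitals, at chr12:10427312-10427367 for Hsph1, chr8:50080439-50080496 for Hspa8 and chr9:64084242-64084299 for Hspe1 on the plus strand and at chr19:41431142-41431177 for Dnajb1 on the minus strand.
Hsph1: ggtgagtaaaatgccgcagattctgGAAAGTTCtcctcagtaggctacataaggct
Dnajb1: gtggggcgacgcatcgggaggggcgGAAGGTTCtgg
Hspa8: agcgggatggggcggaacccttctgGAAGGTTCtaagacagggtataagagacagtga
Hspe1: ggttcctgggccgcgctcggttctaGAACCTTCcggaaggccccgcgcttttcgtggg

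Genes of the endoplasmic reticulum included early falls that turned into late rises. Of 27 measured genes of the list for endoplasmic reticulum and integrated stress, 12 were more positive at 24 h and 1 more negative. At 6 h 11 rose and 6 fell, and at 24 h 20 rose and 1 fell. Hspa5, the main chaperone of that compartment, ran through 0.11, 0.22 and 0.37 with vehicle and -0.70, -0.26 and 0.13 after toxic doses at 6 h. At 24 h the values were -0.095, 0.11 and 0.36 and 0.25, 0.86 and 2.13. It lay below every vehicle rat in 10 of 11 toxic-dose rats at 6 h and above every one in 11 of 12 at 24 h, and its time difference was 1.44 ± 0.21 (adjusted p = 4.80e-07). Creld2, another secretory pathway chaperone, also fell at 6 h (-0.68 ± 0.17) and rose at 24 h (1.03 ± 0.17).

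The 1 member that went the other way was Edem1, which sends misfolded glycoproteins to degradation. At 6 h it was at -0.12, 0.36 and 0.63 with vehicle and 1.97, 2.18 and 2.46 after toxic doses, and at 24 h at -0.24, 0.067 and 1.004 and -0.49, -0.17 and 0.095. All 11 toxic-dose rats stood above the vehicle rats at 6 h, whereas the groups overlapped at 24 h. Its 6 h response was 1.87 ± 0.14, the 24 h response -0.41 ± 0.14 and the time difference -2.28 ± 0.20 (adjusted p = 1.66e-13). Phgdh, the first enzyme of serine synthesis and an ATF4 target, rose from a response of 0.93 ± 0.24 at 6 h to 3.02 ± 0.23 at 24 h, with all 12 late toxic-dose rats above the vehicle rats.

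The amino acid response element core, TGATGNAA, was found in 7 of the 41 promoters of the 50 most positive genes (17.1%). It was in 11.6% of the 43 of the most negative, in 2.0% of those of measured genes and in 3.3% of all. One of the 7 is Trib3, a pseudokinase induced by amino acid stress, chosen after its values were seen, with a time difference of 1.95 ± 0.40. Another is Ugp2, which makes UDP-glucose for glycogen and glucuronides. Among the 7, Gimd1 was below vehicle at both times, with responses of -2.94 at 6 h and -1.25 at 24 h. Inhbe (-1.44 and 0.22) and Aqp8 (-1.30 and 0.26) had negative 6 h responses and small 24 h ones. The 24 h responses were 3.31 for Trib3, 0.86 for Ugp2, 1.545 for Rasl11b and 2.80 for Slc7a1. Inhbe, Aqp8, Rasl11b and Slc7a1 were named after their values were seen. Trib3 is at chr3:161275534-161275579 and Ugp2 at chr14:99698034-99698091, both on the minus strand, with the core or its reverse complement in capitals.
Trib3: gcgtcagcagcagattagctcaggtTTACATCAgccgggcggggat
Ugp2: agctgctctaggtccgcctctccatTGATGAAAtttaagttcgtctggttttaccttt

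Many genes of protein synthesis and turnover were more positive at 24 h. Among 12 aminoacyl-tRNA synthetases, which charge tRNAs, 9 were more positive at 24 h and 0 more negative, with 0.80 ± 0.15 for Lars1, 0.90 ± 0.18 for Iars1 and 0.73 ± 0.15 for Yars1. The 3 probes of Hars1 disagreed in sign, so its mean of 0.56 ± 0.13 is uncertain. Of 27 proteasome subunits 17 were more positive and 0 more negative, with a list median of 0.40. Psma5 of the core particle differed by 0.67 ± 0.12 and Psmd6 of the regulatory particle by 0.51 ± 0.09. In the list for ribosome biogenesis, 11 of 21 were more positive and 0 more negative, among them the box C/D protein Nop56 (1.47 ± 0.28), the pseudouridine synthase Dkc1 (0.72 ± 0.12) and Npm1 (1.07 ± 0.22), a nucleolar chaperone. Of 35 ribosomal proteins 10 were more positive and 0 more negative, among them Rpl6 (0.69 ± 0.13) and Rps6 (0.52 ± 0.11).

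**Figure D3:**
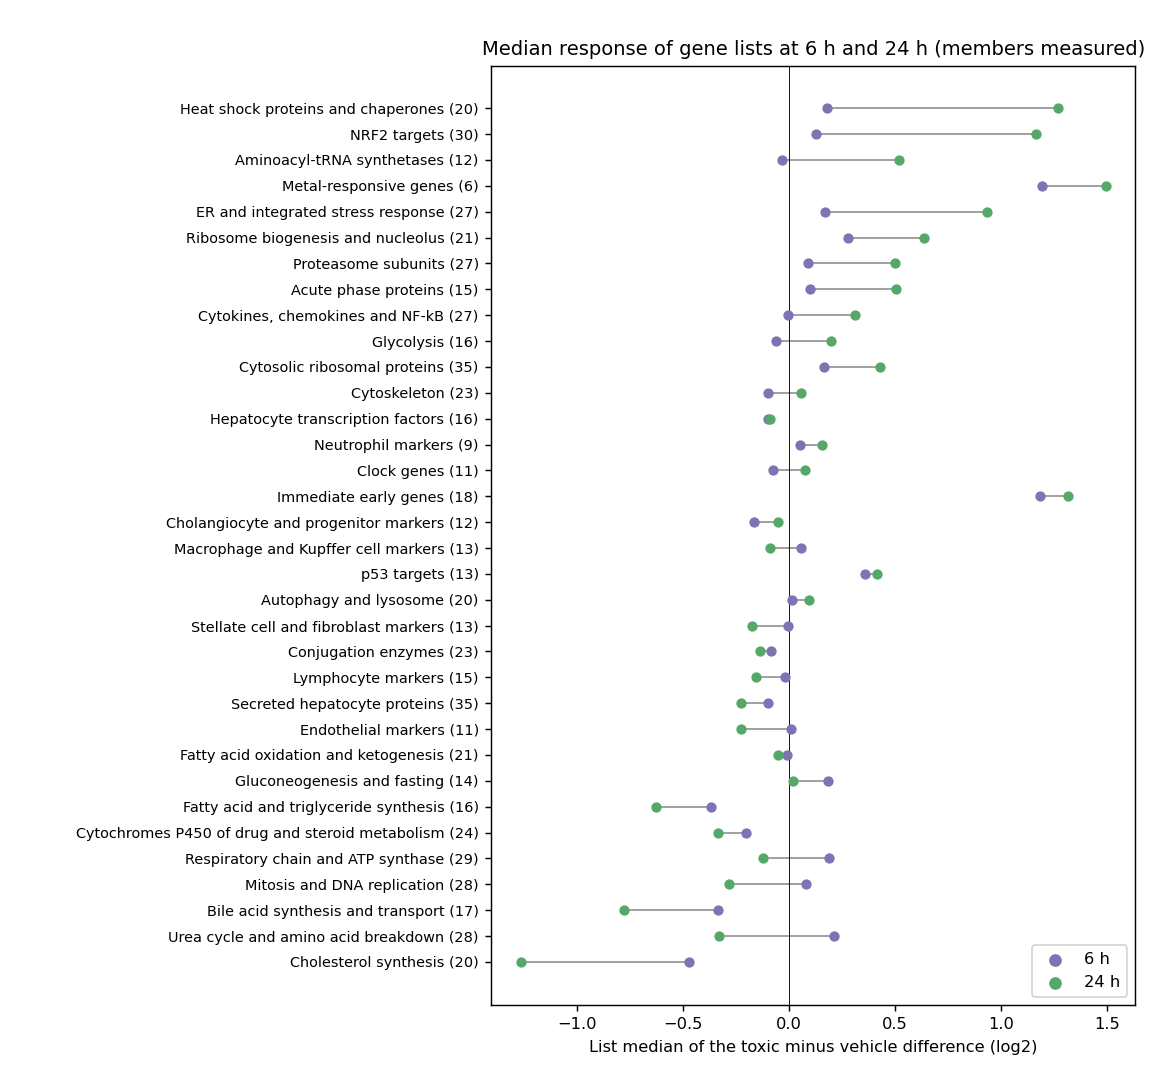
For each gene list, with its number of measured members in brackets, the violet point is the median toxic minus vehicle difference (log2) at 6 h and the green point that at 24 h. The heat shock list moves from 0.18 to 1.27 and the cholesterol synthesis list from -0.47 to -1.27. Immediate early genes stay near 1.18 and 1.31.

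Cholesterol synthesis genes were mostly lower, and more so by 24 h. Of 20 measured cholesterol synthesis genes 13 were more negative at 24 h and 0 more positive. At 6 h 12 fell, at 24 h 18 fell and at neither time did a member rise. Cyp51, the lanosterol demethylase, had values of -0.25, -0.016 and 0.15 with vehicle and -0.83, -0.45 and -0.28 after toxic doses at 6 h. The 24 h values were -0.46, -0.019 and 0.10 and -2.59, -2.32 and -1.14. Toxic-dose rats lay below every vehicle rat at both times, with a time difference of -1.53 ± 0.18 (adjusted p = 2.44e-09). Acat2, which joins acetyl-CoA units, had a 6 h response of 0.096 ± 0.11 and fell at 24 h (-1.45 ± 0.11), while the sterol isomerase Ebp differed by -1.16 ± 0.13 and Pmvk, a kinase of the mevalonate pathway, by -1.30 ± 0.17.

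Squalene synthase, Fdft1, was 1 of the 7 members with no called time difference. It was at -0.12, 0.13 and 0.31 with vehicle and -2.005, -1.58 and -1.26 after toxic doses at 6 h, and at -0.17, 0.15 and 0.42 and -2.49, -1.71 and -0.85 at 24 h. The groups did not overlap at either time. Its response was -1.72 ± 0.14 at 6 h and -1.75 ± 0.14 at 24 h, with a 95% interval of -0.42 to 0.36 for the time difference. Among 16 genes of fatty acid and triglyceride synthesis 4 were more negative and 0 more positive. Fads1, a desaturase of polyunsaturated fatty acids, went from -0.82 ± 0.23 to -3.05 ± 0.23, and Fads2 from -0.57 ± 0.14 to -2.19 ± 0.13. The stearoyl desaturase Scd2 and the elongase Elovl5 completed the 4, with -0.85 ± 0.27 and -0.66 ± 0.18. Scd2 lost the call without 24 h vehicle rat 0685 or 6 h vehicle rat 1871 (adjusted p up to 0.056). Of 17 genes of bile acid synthesis and transport 5 were more negative and 3 more positive. The bile salt export pump Abcb11 rose at 6 h (0.22 ± 0.07) and fell at 24 h (-0.61 ± 0.07), and the uptake carrier Slco1a1 differed by -1.02 ± 0.23. Amacr, a racemase of bile acid and branched fatty acid breakdown, was low at both times and less so at 24 h (-1.83 ± 0.15 and -0.97 ± 0.15). The remaining called members, of which Akr1d1, Baat, Cyp27a1 and Slco1a4 were named after their values were seen, included the reductase Akr1d1, from -0.34 ± 0.20 at 6 h to 0.66 ± 0.19 at 24 h. The others differed by 0.82 ± 0.26 for Baat, which conjugates bile acids, -0.71 ± 0.20 for the hydroxylase Cyp27a1, -1.14 ± 0.37 for the carrier Slco1a4 and -0.999 ± 0.23 for the ligase Slc27a5.

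Among 24 measured cytochromes P450 of drug and steroid metabolism, 6 were more negative at 24 h and 1, Cyp2c7 (0.51 ± 0.15, named after its value was seen), more positive. Cyp2c11, the main male form in rat liver, was at 0.077, 0.16 and 0.44 with vehicle and -2.78, -1.70 and -0.61 after toxic doses at 24 h, with no overlap. At 6 h the values were -0.14, 0.23 and 0.67 and -0.52, -0.23 and 0.38, which overlapped. The time difference was -1.502 ± 0.23 (adjusted p = 1.08e-06). Cyp3a2, which oxidises steroids and drugs, differed by -2.17 ± 0.45, and 11 of 12 late toxic-dose rats lay below every vehicle rat. In bulk liver, fewer cells of a type and less RNA per cell cannot be told apart. Of 23 conjugation enzymes 6 were more positive, among them glutathione transferases, and 4 more negative. The 4, named after their values were seen, were the sulfotransferases Sult1a1 (-0.82 ± 0.22), Sult1b1 (-0.80 ± 0.24) and Sult1c3 (-1.36 ± 0.32) and the transferase Gstm7 (-1.04 ± 0.22).

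Amino acid breakdown genes were higher early and lower late in part. Of 28 measured genes of the urea cycle and amino acid breakdown, 15 were more negative at 24 h and 1, Haao (0.57 ± 0.15, named after its value was seen), more positive. At 6 h 10 rose and 4 fell, and at 24 h 2 rose and 16 fell. Got1, the cytosolic aspartate aminotransferase, had values of -0.13, 0.33 and 0.95 with vehicle and 2.37, 2.72 and 3.32 after toxic doses at 6 h. At 24 h they were -0.71, 0.034 and 0.95 and -0.45, 0.27 and 1.08. Every toxic-dose rat was above the vehicle rats at 6 h, and the groups overlapped at 24 h. The 6 h rise was 5.46-fold, the 24 h response was 0.20 ± 0.19 and the time difference -2.25 ± 0.27 (adjusted p = 4.80e-09).

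Tdo2, which opens the tryptophan ring, followed the same course, from 1.25 ± 0.14 at 6 h to -0.077 ± 0.14 at 24 h. Gnmt, a methyltransferase of glycine, rose at 6 h (0.50 ± 0.15) and fell at 24 h (-0.91 ± 0.15). Glul, the glutamine synthetase of hepatocytes around the central vein, had a 6 h response of -0.29 ± 0.14 and fell at 24 h (-1.85 ± 0.14), where all 12 toxic-dose rats lay below the vehicle rats. Sds, which turns serine into pyruvate, was at -0.11, 0.37 and 1.38 with vehicle and 1.38, 1.82 and 2.39 after toxic doses at 6 h. At 24 h it was at -1.27, 0.034 and 1.501 and -2.42, -0.78 and 0.52, so that the lowest toxic-dose rat lay just above the highest vehicle rat at 6 h and the groups overlapped at 24 h. In the gluconeogenesis and fasting list, 5 of 14 were more negative and 0 more positive, including G6pc1, which releases glucose, at -1.93 ± 0.46. The others were Got1, Sds, the glucose carrier Slc2a2 (-0.53 ± 0.15) and Pck1 (-0.62 ± 0.22, named after its value was seen), the committed step of gluconeogenesis. Of 16 glycolysis genes 4 were more positive and 1 more negative. The latter was Pfkfb1 (-1.85 ± 0.20), which sets the level of a regulator of glycolysis, and Eno1 and Ldha differed by 0.82 ± 0.23 and 0.56 ± 0.18. Ldha lost the call without 24 h vehicle rat 0685 (adjusted p = 0.086). The 2 probes of the isomerase Gpi (0.39 ± 0.11) disagreed in sign, and Tpi1 (0.36 ± 0.12), another isomerase, was named after its value was seen.

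All 29 measured subunits of the respiratory chain and ATP synthase had a time difference below 0, and 12 were called more negative. At 6 h 10 rose and 0 fell, against 7.25% and 7.84% of all rows. At 24 h 1 rose and 5 fell, against 13.8% and 15.0%, so the falls at 24 h were near the share of all rows. Cox5a, of cytochrome oxidase, was at -0.25, -0.14 and 0.024 with vehicle and 0.066, 0.21 and 0.45 after toxic doses at 6 h, and at -0.091, -0.01 and 0.17 and -0.37, -0.13 and 0.20 at 24 h. It was above the vehicle rats in all 11 toxic-dose rats at 6 h and overlapped with them at 24 h, with a time difference of -0.46 ± 0.09 (adjusted p = 0.000119). Sdhd, of succinate dehydrogenase, rose at 6 h (0.25 ± 0.07) and fell at 24 h (-0.22 ± 0.07). Among 21 genes of fatty acid oxidation and ketogenesis 5 were more negative and 1, the thiolase Acaa2 (0.71 ± 0.16), more positive. The carnitine acetyltransferase Crat rose at 6 h (1.34 ± 0.17) and had a 24 h response of -0.053 ± 0.17. The dehydrogenases Acadm and Hadh differed by -0.80 ± 0.18 and -0.80 ± 0.18, the lipid sensor Ppara by -0.62 ± 0.22 (lost without any of 20 single rats) and the peroxisomal Ehhadh, named after its value was seen, by -0.81 ± 0.27.

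Part of the cell cycle genes fell late. Of 28 measured genes of mitosis and DNA replication 10 were more negative at 24 h and 1, the helicase subunit Mcm7 (0.56 ± 0.16, named after its value was seen), more positive. At 6 h 2 rose and 1 fell against vehicle, and at 24 h 6 rose and 12 fell. Cdk1, the kinase that starts mitosis, ran through -1.14, -0.42 and 0.51 with vehicle and -0.47, 0.047 and 0.49 after toxic doses at 6 h. At 24 h it ran through -1.39, -0.65 and 0.87 and -2.58, -2.27 and -1.38. The groups overlapped at 6 h and 11 of 12 toxic-dose rats lay below every vehicle rat at 24 h, with a time difference of -2.08 ± 0.41 (adjusted p = 0.000109). Ube2c, the ubiquitin-conjugating enzyme that works with the anaphase-promoting complex, differed by -2.37 ± 0.53 and Plk1, a mitotic kinase, by -1.53 ± 0.31.

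Of 13 p53 targets 3 were more positive and 2 more negative. The cell cycle inhibitor Cdkn1a was at -0.48, -0.16 and 0.28 with vehicle and 0.37, 1.19 and 1.73 after toxic doses at 6 h, with no overlap. At 24 h it was at -0.27, 0.12 and 0.35 and -1.01, 0.021 and 0.77, with toxic-dose rats on both sides of the vehicle range. Its time difference was -1.34 ± 0.23 (adjusted p = 1.54e-05), an average of 3 probes, and not every probe passed on its own. Tp53inp1, a stress protein, was also more negative (-0.68 ± 0.19). The exonuclease Aen (0.95 ± 0.17), the death receptor Fas (0.91 ± 0.23) and Phlda3 (0.99 ± 0.31, named after its value was seen) were more positive.

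**Figure D4:**
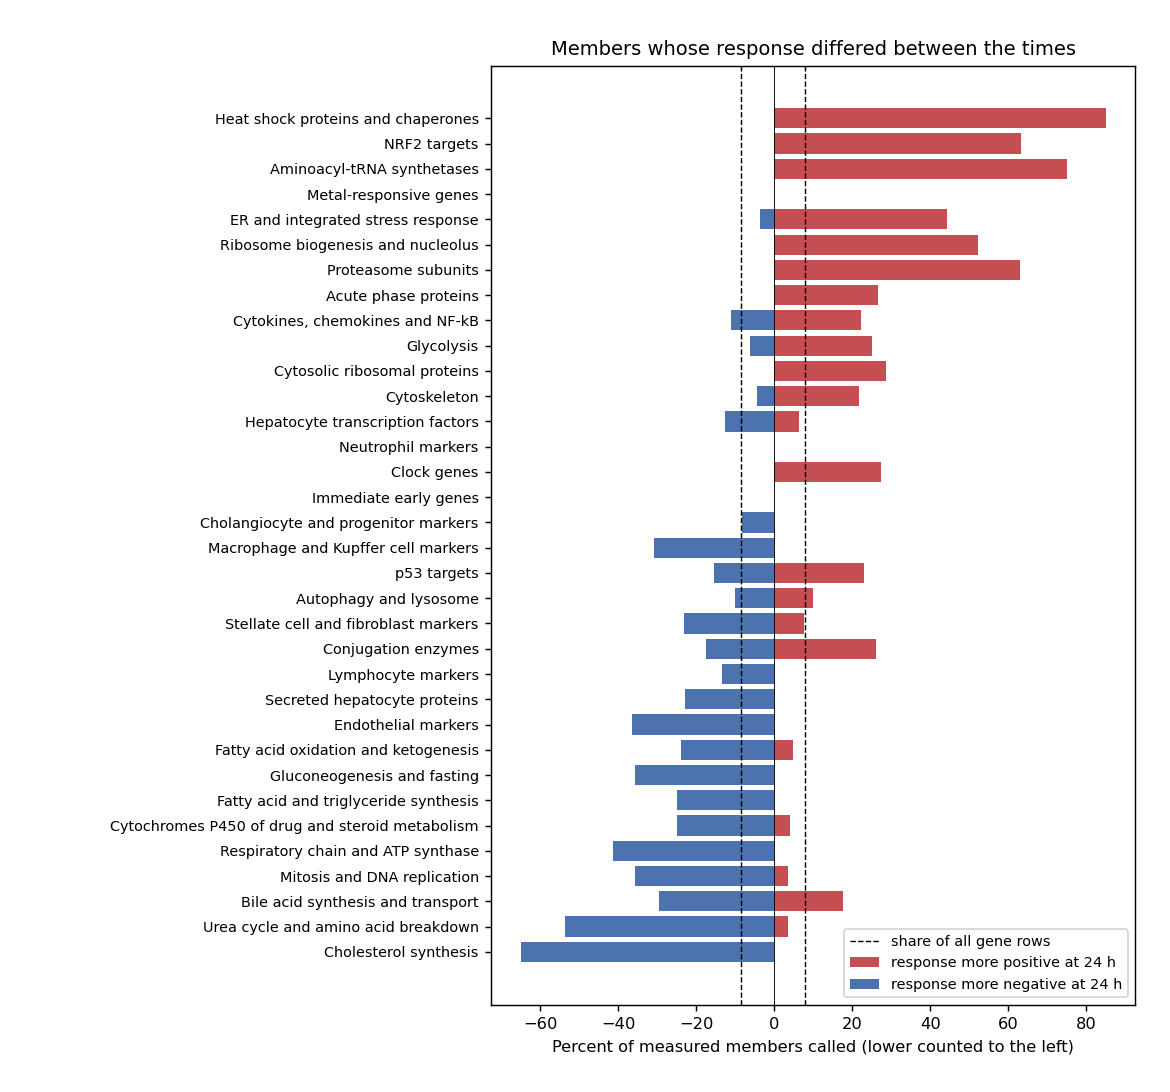
Bars give the percent of measured members of each list with a called time difference, to the right where the response was more positive at 24 h and to the left where it was more negative. Dashed lines mark the shares of all gene rows, 7.99% and 8.52%. The heat shock list reaches 17 of 20 members and the cholesterol synthesis list 13 of 20.

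Of 20 autophagy and lysosome genes 2 were more positive and 2 more negative, shares near the 7.99% and 8.52% of all rows, so that the members below are described singly. Map1lc3b, which coats the growing autophagosome, was at -0.30, 0.032 and 0.40 with vehicle and 1.45, 1.87 and 2.59 after toxic doses at 6 h. At 24 h the values were -0.65, 0.16 and 0.28 and -0.16, 0.12 and 0.53. All 11 toxic-dose rats were above the vehicle rats at 6 h and the groups overlapped at 24 h, for a time difference of -1.75 ± 0.20 (adjusted p = 1.07e-09). The cargo receptor Sqstm1, itself an NRF2 target, had the opposite order, from -0.26 ± 0.12 to 0.95 ± 0.12. The remaining pair was Atg3 (0.43 ± 0.14), which joins lipid to Map1lc3b, and Gabarapl2 (-0.42 ± 0.13), of the Map1lc3b family. Atg3 lost its call without 24 h vehicle rat 1457 or 6 h vehicle rat 9203 (adjusted p up to 0.060) and Gabarapl2 without 24 h vehicle rat 0685 (adjusted p = 0.053). Of 11 clock genes 3 were more positive and 0 more negative. Dbp, Per2 and Bhlhe40, output and repressor genes of the circadian clock, fell at 6 h, with responses of -0.83 ± 0.21, -1.13 ± 0.27 and -0.74 ± 0.17, and had 24 h responses of 0.19 ± 0.21, 0.072 ± 0.26 and 0.074 ± 0.17. The time difference of Per2 was not called without 6 h vehicle rat 9203 (adjusted p = 0.051). The 6 h and 24 h livers were each set against vehicle rats of their own time. Of 23 cytoskeleton genes 5 were more positive and 1, the smooth muscle light chain Myl9 (-1.35 ± 0.15), was more negative. The 5 were the tubulin Tuba4a (1.04 ± 0.22), the actin-severing Cfl1 (0.99 ± 0.25), tropomyosin Tpm1 (0.77 ± 0.19) and, named after their values were seen, Cnn3 (0.63 ± 0.17) and Pfn1 (0.30 ± 0.11).

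Inflammatory genes changed in part. Of 15 acute phase proteins 4 were more positive and 0 more negative, and besides A2m these were Tfrc (0.92 ± 0.26), Serpina3n (0.51 ± 0.18, lost without any of 12 single rats) and Saa4 (0.40 ± 0.13). A2m, the broad protease inhibitor that marks the acute phase in rats, was at -0.40, 2.77 and 4.31 after toxic doses at 6 h and 2.28, 3.89 and 6.09 at 24 h. With vehicle it was at -0.88, -0.058 and 0.63 and -0.36, -0.14 and 0.31, so the groups overlapped at 6 h and not at 24 h. Its time difference of 1.87 ± 0.63 (adjusted p = 0.0308) missed the threshold when any of 6 single 6 h rats was left out, with an adjusted p of up to 0.063, without vehicle rat 9203. Of 27 genes of cytokines, chemokines and NF-kB, 6 were more positive and 3 more negative, the latter near the 8.52% of all rows. The T cell attractant Cxcl10 had -0.75 ± 0.32 at 6 h and rose to 1.19 ± 0.32 at 24 h, and the interleukin 6 receptor Il6r rose at 6 h (0.71 ± 0.15) and had -0.30 ± 0.15 at 24 h. The other two that were more negative, Ccl5 (-0.58 ± 0.20) and Il18 (-0.42 ± 0.14), and the monocyte attractant Ccl2 were named after their values were seen. Ccl2 had the largest value of this list, 3.000 ± 0.89 (adjusted p = 0.0122).

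Markers of other liver cells were read from lists of their own. Of 13 macrophage and Kupffer cell markers 4 were more negative and 0 more positive, although the list median was 0.032. Clec4f, a lectin of Kupffer cells, was at 0.074, 0.12 and 0.27 with vehicle and 0.046, 0.21 and 0.61 after toxic doses at 6 h, and at -0.11, 0.17 and 0.37 and -1.504, -0.64 and -0.22 at 24 h. The groups overlapped at 6 h and not at 24 h, with a time difference of -1.04 ± 0.17 (adjusted p = 3.06e-06). Cd5l, another Kupffer cell product, and the complement chains C1qb and C1qc differed by -0.68 ± 0.16, -0.57 ± 0.11 and -0.49 ± 0.09. By sign alone, 7 of the 13 markers had a positive time difference, up to 1.04 and not called, and 6 a negative one. The mean over the list in single toxic-dose rats ran from -0.17 to 0.21 at 6 h and from -0.37 to 0.47 at 24 h, and in vehicle rats from 0.047 to 0.19 and from -0.15 to 0.29.

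Neutrophil markers had 0 called time differences by limma among 9, with 2 at an unadjusted p under 0.05, and 2 rose at 24 h. With 16.5% of all rows called, 9 members are too few for that 0 to tell this list from all rows. S100a9, an abundant neutrophil protein, was at -1.51, -0.64 and -0.17 with vehicle and -0.68, 0.29 and 4.55 after toxic doses at 24 h. Of the 12 late toxic-dose rats 5 did not lie above the highest vehicle rat, and the time difference was 1.71 ± 0.67 (adjusted p = 0.0687). Among 11 endothelial markers 4 were more negative, namely Vwf, the clotting factor carrier, at -0.46 ± 0.10, the hyaluronan receptor Lyve1 at -0.49 ± 0.12, the growth factor receptor Kdr at -0.68 ± 0.24 and the junction protein Pecam1 at -0.27 ± 0.09. Kdr and Pecam1 each lost the call when any of 11 single rats was left out. Over all settings Vwf ran from -0.76 to -0.18 and lost the call in 2, with a limma adjusted p of up to 0.71. Lyve1 ran from -0.86 to -0.27 and lost it in 1. The mean over the endothelial list ran from -0.47 to 0.060 in toxic-dose rats and from -0.030 to 0.14 in vehicle rats at 24 h. Of 15 lymphocyte markers 2 were more negative, against 8.52% of all rows, the T cell kinase Lck (-0.72 ± 0.19) and Cd8a (-0.49 ± 0.14). Among 13 stellate cell and fibroblast markers 3 were more negative and 1 more positive, the latter near the 7.99% of all rows, with -0.98 ± 0.26 for Lrat, which stores retinol esters, -0.37 ± 0.13 for Pdgfra, -0.32 ± 0.11 for Ngfr and 0.43 ± 0.10 for Rgs5. Pdgfra lost the call without any of 17 single rats, Ngfr without any of 13. The means over the stellate list at 24 h, from -0.35 to -0.062 in toxic-dose rats and from -0.038 to 0.15 in vehicle rats, did not overlap, and those over the lymphocyte list ran from -0.49 to -0.046 and from -0.16 to -0.031. Of 12 cholangiocyte and progenitor markers 1, the fetal protein Afp (-0.48 ± 0.17), was more negative, against 8.52% of all rows, and this call was lost without any of 16 single rats. The part of these cells in the other results was not tested. Among 35 secreted hepatocyte proteins 8 were more negative and 0 more positive, with -1.28 ± 0.23 for complement C6 and -0.64 ± 0.12 for the apolipoprotein Apoa2. Of 16 hepatocyte transcription factors 2 were more negative, Nr1i2 and Ppara, and 1 more positive, Gata6 (0.48 ± 0.10), against 8.52% and 7.99% of all rows. The drug-sensing receptor Nr1i2 rose at 6 h (0.44 ± 0.11) and fell at 24 h (-0.33 ± 0.11).

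Genes with opposite responses at the 2 times included some of the largest time differences. The drug export pump Abcb1a was at -0.10, 0.26 and 0.59 with vehicle and -1.47, -0.79 and -0.43 after toxic doses at 6 h. Its 24 h values were -0.33, -0.12 and 0.57 and 0.99, 2.06 and 5.65. All toxic-dose rats lay below the vehicle rats at 6 h and above them at 24 h, and the time difference was 3.48 ± 0.44 (adjusted p = 1.16e-08). Trim47, of a family of ubiquitin ligases, was at -0.035, 0.21 and 0.56 and -1.45, -1.14 and -0.26 at 6 h and at -0.31, 0.29 and 0.40 and 0.57, 1.39 and 1.98 at 24 h, vehicle first. It too was below every vehicle rat and then above every one, by 2.44 ± 0.23. The glycogen-binding Stbd1, the caveolar protein Cavin3, Ugp2 and the anion transporter Slc17a3 fell and then rose, with time differences of 2.02 ± 0.31, 1.85 ± 0.18, 1.83 ± 0.21 and 1.76 ± 0.16. The late rise of Stbd1 was not seen in every toxic-dose rat. Rats 7075, 9537 and 5889 were at -0.63, -0.37 and -0.023, while vehicle rats ran from -0.40 to 0.33.

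The opposite order was led by Aspa, which splits N-acetylaspartate. It was at -0.70, -0.48 and -0.035 with vehicle and 0.43, 1.43 and 2.08 after toxic doses at 6 h, and at -0.63, -0.48 and 0.32 and -3.09, -1.84 and -0.40 at 24 h. All 11 toxic-dose rats were above the vehicle rats at 6 h and 11 of 12 were below them at 24 h, for a time difference of -3.34 ± 0.35 (adjusted p = 6.03e-11). The zinc finger repressor Zfp354a, Tsx and the tyrosine phosphatase Ptprr rose and then fell, with -2.78 ± 0.52, -2.44 ± 0.33 and -1.61 ± 0.15. For all of them the groups overlapped at 24 h. Zfp354a then ran from -2.76 to -0.75 after toxic doses. Its vehicle rats 0685 and 7393 were at 1.13 and 1.08, and the others ran from -1.81 to -1.20. Tsx ran from -0.82 to 0.44 with vehicle and from -1.66 to 0.40 after toxic doses.

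Other large late changes had no called response at 6 h. Rises of this kind were found for the matrix protease Mmp3 (2.39 ± 0.40 at 24 h), the guidance factor Sema3c (1.99 ± 0.37), the proteoglycan Esm1 (1.60 ± 0.30) and the acyl-CoA synthetase Acsm2 (2.27 ± 0.21). Falls were found for the carbonic anhydrase Car7 (-3.27 ± 0.28) and Sez6 (-3.12 ± 0.31). The 24 h groups overlapped for Mmp3, Sema3c and Esm1 and not for Acsm2, Car7 and Sez6. Toxic-dose rats 0504 and 9540 were at 0.039 and 0.14 for Mmp3 and at -0.017 and 0.09 for Sema3c. Vehicle rat 2483 was at 0.16 and 0.38 for these genes. Esm1 ran from 0.12 to 2.87 after toxic doses, with vehicle rat 2483 at 0.74.

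Early responses that faded formed a further group. Gucy1b2, a subunit of the nitric oxide receptor guanylate cyclase, was at -0.59, 0.19 and 0.23 with vehicle and -4.04, -3.62 and -2.77 after toxic doses at 6 h. At 24 h it was at -0.24, 0.048 and 0.14 and -2.25, -1.35 and -0.47. The groups did not overlap at either time, and an 11.4-fold fall at 6 h became a 2.61-fold fall at 24 h. Falls at 6 h, with responses of -2.26 ± 0.35 for Bhlha15, a transcription factor of secretory cells, -1.99 ± 0.27 for Lrrc17 and -1.73 ± 0.16 for the lysyl oxidase Loxl4, were not called at 24 h, with 0.47 ± 0.34, -0.55 ± 0.27 and -0.012 ± 0.15. Among rises, the amino acid transporters Slc38a2 and Slc16a10 went from 2.62 ± 0.29 to 1.25 ± 0.29 and from 2.16 ± 0.16 to 0.018 ± 0.16. Alkaline phosphatase, Alpl, went from 2.59 ± 0.27 to 1.002 ± 0.27, and Retreg1, a receptor for the autophagy of endoplasmic reticulum, from 2.47 ± 0.26 to 0.83 ± 0.26. The carboxylesterase Ces2c went from 2.30 ± 0.17 to 1.17 ± 0.16.

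Responses also held. Among rows called at both times whose interval for the time difference lay within 0.5 of 0, the largest rises included Lysmd2, at 1.03 ± 0.16 at 6 h with a time difference of -0.026 ± 0.22, and the mitochondrial import receptor Tomm20 (0.80 ± 0.12 and 0.77 ± 0.12). The largest falls after Fdft1 were the LIM protein Csrp1 (-1.29 ± 0.16 and -1.25 ± 0.16), Lims2 (-1.13 ± 0.14 and -1.09 ± 0.14), Sh3bp5 (-1.02 ± 0.16 and -1.04 ± 0.15) and the mitochondrial NAD kinase Nadk2 (-1.05 ± 0.14 and -0.996 ± 0.13), in the order of the mean of both times.

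The time difference was also taken at each toxic dose. It was called for 1892 rows (9.97%, with 4.52% more positive and 5.45% more negative at 24 h) at 1500 mg/kg and for 2537 (13.4%, with 6.71% and 6.66%) at 2000 mg/kg, both against the same vehicle rats. Akr7a3 stood at 2.87 ± 0.31 and 3.67 ± 0.30, Abcb1a at 2.83 ± 0.49 and 4.11 ± 0.48, Fads1 at -1.82 ± 0.37 and -2.62 ± 0.36 and Aspa at -3.25 ± 0.41 and -3.40 ± 0.40, lower dose first. With limma, 0 rows had a called difference between the doses, and 641 had an unadjusted p under 0.05 (3.38%). The smallest p values belonged to Fzd2, a Wnt receptor, Fcer2, an immunoglobulin E receptor, and Csmd1, each with adjusted p = 0.952. Csmd1 was at 1.46 ± 0.43 and 3.16 ± 0.42. At 150 mg/kg the time difference came from the limma fit in 9 groups and compared 24 rats that include the vehicle rats above. It was called for 0 rows, and 660 had an unadjusted p under 0.05 (3.48%). There Akr7a3 was at -0.91 ± 0.31 and Aspa at -0.076 ± 0.40.

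**Figure D5:**
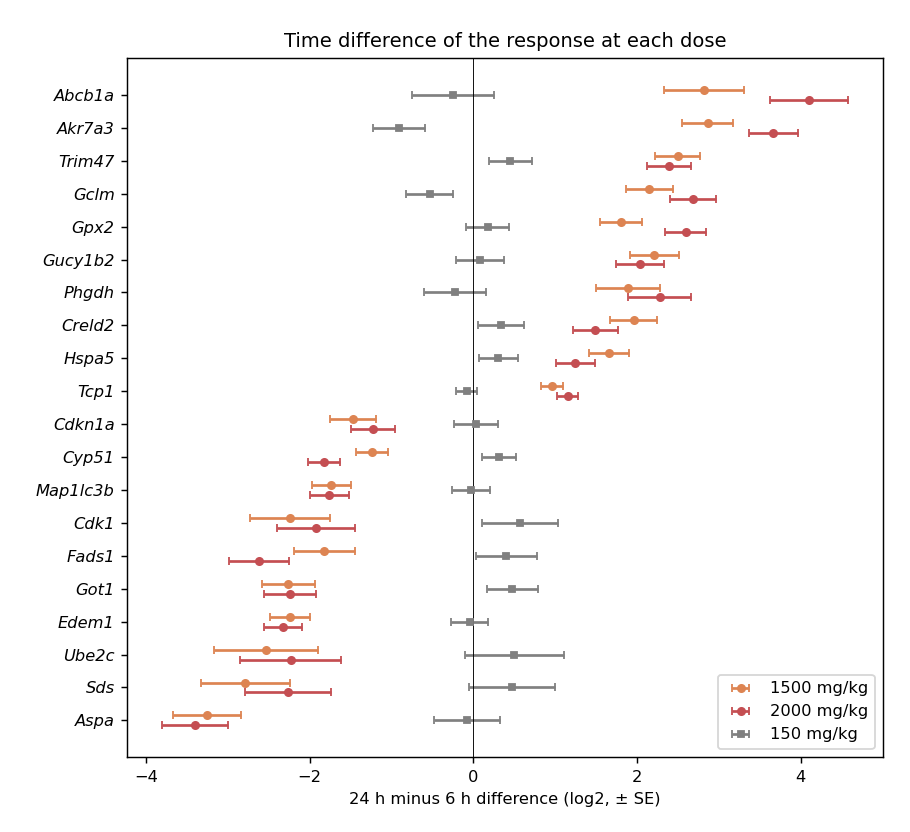
For 20 genes, points give the 24 h minus 6 h difference (log2) at each dose with bars of 1 SE, orange for 1500 mg/kg, red for 2000 mg/kg and grey squares for 150 mg/kg. Both toxic doses lie on the same side of 0 for every gene shown, and 150 mg/kg lies nearer to 0. Akr7a3 is at 2.87 and 3.67 for the toxic doses and at -0.91 for 150 mg/kg.

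The 24 h toxic-dose rats varied more than the others, with a median SD of 0.294 per row against 0.222 for 6 h toxic-dose rats, 0.174 for 6 h and 0.212 for 24 h vehicle rats. The SE uses 1 spread per gene for all groups and is too small for the widest. A set of 500 blank probes was shared by 49 arrays of the study, which marks a batch of unstated origin that held rats of every group. Among rats with none of these arrays 948 rows had a called time difference, and among rats with both, 1916. The time differences of Akr7a3 were 2.75 and 3.79 in these sets, of Aspa -3.08 and -3.69, of Cyp51 -1.22 and -1.83, of Hspa5 1.47 and 1.27 and of Got1 -2.42 and -2.29. Each of these stayed past the threshold in both sets. Dbp and A2m passed in neither set, Cyp3a2 and Cox5a only among rats with both such arrays, and Ube2c only among rats with none.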

How the data were processed

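The authors deposited 1 value per probe and array in log10, a unit assumed from the values, and a key of dose in mg/kg by rat number. Neither the log base, the direction nor any background or dye correction is given in the sources used here. Array medians as deposited lay between 0 and 0.000258. Of the values 7.74% were exactly 0 and 0.836% were blank. After conversion to log2, the sign of each array whose Cy3 channel held the rat's RNA was reversed and each pair was averaged to 1 value per rat, the unit of every p-value. Identical arrays numbered 0. With dye means taken out, pairs had a negative correlation across probes in 32 of the 35 rats, at a median of -0.272. It was positive, so that the 2 arrays disagreed after the sign was turned, only in rats of 6 h. These were vehicle rats 1871 (0.28) and 8897 (0.17) and the 2000 mg/kg rat 5886 (0.26).

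Of 22075 probes, 12750 had 1 symbol, 5 several and 9320 none, by the annotation of the platform. A match by Entrez number was found for 12720 in a RefSeq table of GRCr8. Probes of 1 symbol were averaged, for 2266 genes with more than 1 probe. Contrasts were fitted with limma 3.58.1 (R 4.3.3), two-sided, with Benjamini-Hochberg adjustment over 18978 rows. Figures and tables used Python 3.11.15, pandas 2.3.3, NumPy 2.4.6 and matplotlib 3.10.9. On simulated data the time difference was tested over 18978 rows, 200 of them changed. It recovered 32% of rows changed by 0.5 (log2), 79% by 1 and 94% by 2, and 13 of 155 calls were false. The simulation gave all groups of a row the same spread, so it cannot show these rates under the unequal spread of the data.

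The rats, members and gene lists were chosen with earlier results of these data known. Named genes were the 10 largest called time differences each way where at least 10 of 12 late rats lay beyond all or all but 1 of the 11 early ones. To these were added the 6 largest each way that reversed, faded or held, 4 of each list by lowest p, 3 for dose by time and 5 that bear on direction. Alternatives are listed in the closing section.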

Additional observations from a re-analysis of the deposited data

Results flagged for a closer look

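The response to the toxic doses differed between 24 h and 6 h for 3134 gene rows by the test of the difference itself, and for 150 rows a fall turned into a rise and for 132 a rise turned into a fall.

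Among the vehicle groups of 6 rats, 66 sets of values over 33 named genes were examined for a rat far from the other 5, and 6 were found. Chance flags about 1 in 20. All 6 were at 24 h. Rat 0685 was the highest for Aspa (0.32, next -0.38) and the lowest for Creld2 (-0.31, next 0.34) and Trim47 (-0.31, next 0.24). Without it the time differences were -3.20 for Aspa, 1.57 for Creld2 and 2.33 for Trim47, all past the threshold. Rat 1457 was the highest for Gclm (0.49, next 0.15), rat 2483 the lowest for Gpx2 (-0.40, next -0.10) and rat 7393 the lowest for Glul (-0.13, next 0.04).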

How the results depend on the processing

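The count of called time differences was 3134 and lay between 2715 (without 24 h vehicle rat 0685) and 3762 (without 24 h 1500 mg/kg rat 0504) when each rat was left out. The 24 h count lay between 4746 and 6048 without the same rats, and the 6 h count between 2386 (vehicle rat 4550 left out) and 2943 (the 2000 mg/kg rat 6930 left out). The counts at 150 mg/kg and between the doses stayed at 0 to 0. With rat 7334 kept the time difference was called for 2984 rows and the 6 h response for 2404. Counts moved by over 1.5 times in these cases: 3544 at 24 h with only the compared groups in the fit, and 4722 at 6 h with quality weights per rat. Among rats with no array that shares blank probes they were 948 for the time difference, 1185 at 6 h and 2793 at 24 h. Among rats with both, a split added after seeing the data, they were 1916 for the time difference and 1702 at 6 h. At 1500 mg/kg alone the time difference was called for 1892 rows, and with a fold of at least 1.5 the counts were 1602, 892 at 6 h and 1808 at 24 h. The dose and blank-probe subsets hold fewer rats, and the fold rule is stricter, by construction. More of the compared rats had no such array than had both. The cause of the moved counts was not tested.

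Of 144 named genes with a called time difference, 64 lost the call among rats with no shared blank probes and 45 among rats with both, and 0 changed sign. Leaving out rats gave 5040 values, of which 113 lost the call, in A2m, Afp, Atg3, Gabarapl2, Kdr, Ldha, Ngfr, Pdgfra, Pecam1, Per2, Ppara, Scd2 and Serpina3n, and 0 changed sign. Probes of 1 gene taken singly changed sign for Hars1, 24 h minus 6 h (-0.51), and Gpi, 24 h minus 6 h (-0.16). Either dye orientation, complete rows, zeros as missing, group weights, 1 row per probe and the blank-probe covariate left every count within 1.5 times. Centring each array left the counts unchanged, which array medians so near 0 fixed in advance. No paired analysis was possible because the rats of the groups compared share no replicate number. Ratios near the pool, exact zeros and the 2 arrays per rat limit what small differences can show.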
